A study of Mus musculus with 6 samples.

Results

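The cytosolic sensors of RNA and DNA were examined as 9 genes taken by name: Ddx58 (RIG-I), Ifih1 (MDA5), Dhx58 (LGP2), Mavs, Mb21d1 (cGAS), Tmem173 (STING), Zbp1, Eif2ak2 (PKR) and Adar (ADAR1). Each of the 9 was found among the 24411 genes of the count tables, and 8 were among the 10133 genes tested, since the counts of Mb21d1 were too low for the filter. RNA-seq libraries of primary mouse microglia (PM) were compared in 2 groups of 3, PM given GSK-J4 (10 μM) and PM given both LPS (10 ng/ml) and GSK-J4 (10 μM), each at 4-h. GSK-J4 is an inhibitor of histone H3K27 demethylases of the jumonji family, and LPS is the bacterial endotoxin recognised by TLR4. Because GSK-J4 was present in both groups, LPS was the treatment that differed, and each difference given here is one between these groups of libraries. Untreated PM and PM given LPS alone were not analysed here, so no effect of GSK-J4 itself can be read from these values. The cells were shaken off mixed glial cultures grown from the brains of 3-day-old ICR mice, which the methods describe as pooled, so the libraries do not stand for single animals. The study describes the 3 libraries of a group as independent samples and biological replicates. Whether they came from separate cultures is not detailed in the labels, and the p values measure the spread between these libraries.

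Innate immune cells carry sensors in the cytosol that bind viral or misplaced nucleic acid. RIG-I and MDA5 are RNA helicases that recognise different double-stranded RNAs and signal through MAVS, an adaptor on mitochondria, to the kinases TBK1 and IKKε and the transcription factors IRF3 and IRF7, which switch on interferon-β. cGAS binds DNA and makes a cyclic dinucleotide that activates STING, which reaches the same kinases. ZBP1, PKR and ADAR1 bind double-stranded or Z-form nucleic acid and act on cell death, translation and RNA editing, respectively. Several of these sensor genes are known as interferon-stimulated genes, which are switched on through an interferon-stimulated response element (ISRE) in their promoters.

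The promoter windows of the sensors were read from RefSeq (GRCm38.p6, the assembly of mm10), from 250 bases before to 50 bases after the annotated start. Windows were read for 6 of the 9 genes, and no window is reported here for Dhx58, Tmem173 or Zbp1. Each window was searched on both strands for GAAANNGAA, the core of the ISRE, and for GGANTTTCC, a form of the κB motif. The windows of Ifih1, Ddx58 and Eif2ak2 are shown because they set the sensor gene that differed most between the groups beside another helicase gene and a sensor gene that differed little. They run 5′ to 3′ along the gene and capitals mark the matches to the ISRE core.
Ifih1, chr2:62646206-62646505, minus strand: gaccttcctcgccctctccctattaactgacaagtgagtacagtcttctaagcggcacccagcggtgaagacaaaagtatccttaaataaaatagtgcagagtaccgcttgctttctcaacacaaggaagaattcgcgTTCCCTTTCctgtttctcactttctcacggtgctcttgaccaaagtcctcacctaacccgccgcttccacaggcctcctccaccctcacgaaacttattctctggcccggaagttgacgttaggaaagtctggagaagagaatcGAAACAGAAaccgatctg
Ddx58, chr4:40239776-40240075, minus strand: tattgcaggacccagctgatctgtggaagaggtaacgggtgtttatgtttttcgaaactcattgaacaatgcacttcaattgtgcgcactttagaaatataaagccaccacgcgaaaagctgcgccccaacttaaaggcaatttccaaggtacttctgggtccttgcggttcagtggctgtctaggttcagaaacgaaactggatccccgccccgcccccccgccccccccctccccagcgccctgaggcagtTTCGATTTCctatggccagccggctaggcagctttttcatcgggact
Eif2ak2, chr17:78882523-78882822, minus strand: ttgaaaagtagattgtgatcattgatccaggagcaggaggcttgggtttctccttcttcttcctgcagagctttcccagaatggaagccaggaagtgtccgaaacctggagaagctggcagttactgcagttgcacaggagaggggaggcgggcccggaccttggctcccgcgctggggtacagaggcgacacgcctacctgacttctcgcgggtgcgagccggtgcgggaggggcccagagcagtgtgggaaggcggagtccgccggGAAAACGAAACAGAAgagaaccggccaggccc

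The Ifih1 window held 2 matches to the ISRE core, beginning 112 bases before the start (on the opposite strand) and at base 33 after it. The Ddx58 window held 1 match, at base 4 on the opposite strand, and the Eif2ak2 window held 2 that overlap each other, at bases 19 and 25. One of the 3 windows of Adar held 2 matches, and the windows of Mavs and Mb21d1 held 0. Over all RefSeq windows of this length, 8.56% of 32851 held the ISRE core and 1.25% held the κB form, of which the sensor windows held 0. These matches describe letters in the windows, and no binding was measured here. The map of matches shows that the genes with a match were not all genes that differed between the groups, since Eif2ak2 and Adar, whose values follow, did not pass the test.

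**Figure D1:**
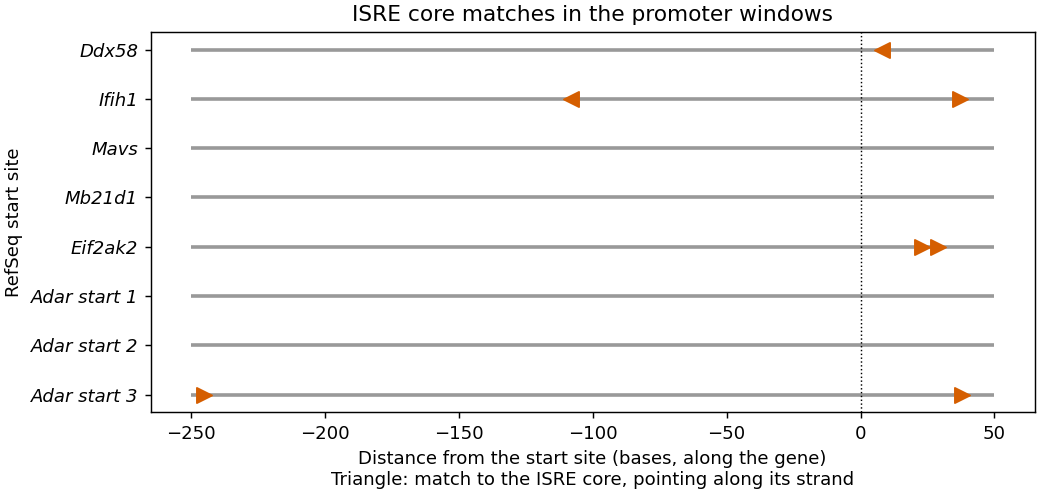
Each grey line is a RefSeq promoter window, from 250 bases before to 50 bases after the start (x axis, bases along the gene), with 1 row for each start of 6 sensor genes. Orange triangles mark the 7 matches to the ISRE core and point along their strand, and they lie in 4 of the 6 genes.

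Of the fragments that mapped uniquely, 59.3 to 62.6% per library fell on no gene on the counted strand. The libraries held 2597505 to 3472716 fragments assigned to genes. The ribosomal RNA precursor Rn45s took 22.2 to 32.4% of them in GSK-J4 and 45.8 to 48.1% in LPS + GSK-J4. Outside Rn45s, Mir6236 and Lars2, 1374377 to 2443344 counts were left for all other genes. Levels are given as CPM, the count of a gene scaled to a common library size, after TMM scaling, on which 3 counts in a library corresponded to 0.673 to 1.24 CPM. Replicate 3 of both groups stood apart from the other libraries on the second principal component, which held 16.4% of the variance, and results that rest on them are given with and without these libraries. All 10 markers of microglia were tested and 0 were called in edgeR or DESeq2. Of the 10, however, 7 were lower at an unadjusted p under 0.05, against 15.5% of all genes tested. At an edgeR adjusted p ≤ 0.01 with any fold, 2 were lower, against 5.46% of all genes tested. The sum over the 10 was 3456 to 3617 CPM in GSK-J4 and 2761 to 2922 CPM in LPS + GSK-J4. Markers of other cells were present at lower sums and were higher with LPS + GSK-J4, at 53.9 to 59.4 against 131 to 159 CPM for 8 astrocyte markers and 182 to 209 against 342 to 393 CPM for 8 oligodendrocyte lineage markers. Of these lists, 1 of 7 tested astrocyte markers and 0 of 6 tested oligodendrocyte lineage markers were called in edgeR, with 2.95% of all genes tested called up. At an unadjusted p under 0.05, 5 and 4 were higher, against 19.3% of all genes tested. At an edgeR adjusted p ≤ 0.01 with any fold, 3 and 4 were higher, against 8.42% of all genes tested. The sum ranged from 80.1 to 281 CPM in GSK-J4 and from 138 to 427 CPM in LPS + GSK-J4 for 6 fibroblast markers, from 13.9 to 17.7 and from 21.5 to 57.0 for 4 endothelial markers, of which Cldn5 was at 0 in every library, and from 6.06 to 7.08 and from 14.1 to 16.4 for 4 neuron markers. Of these 3 lists, 6, 1 and 1 genes were tested, and 1 was called up in edgeR, with 2.95% of all genes tested called up. It was Cdh5, the one endothelial marker tested (log2 fold change 1.504, adjusted p = 0.00312). The one neuron marker tested, Tubb3, had a log2 fold change of 1.38 (edgeR adjusted p = 7.43e-04). At an edgeR adjusted p ≤ 0.01 with any fold, 0 fibroblast, 1 endothelial and 1 neuron marker were higher, against 8.42% of all genes tested. The part of these cells in the values of the sensors was not tested, and in bulk RNA fewer cells of a type and less RNA per cell cannot be told apart.

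Among the sensors, Ifih1 alone was up-regulated by both criteria for differential expression in edgeR, an adjusted p ≤ 0.01 and a log2 fold change ≥ 1.5. This was 1 of 8 tested sensor genes, and 2.95% of all 10133 genes tested were called up. None of the 8 was down-regulated by the same criteria, at which 0.809% of all genes tested were called down, and 1 of the 8 (Mavs) was lower at an unadjusted p under 0.05, a share near the 15.5% of all genes tested. DESeq2 also called 1 sensor up and 0 down. At an adjusted p ≤ 0.01 with any fold, 2 of the 8 were higher (Ifih1 and Zbp1) against 8.42% of all genes, and at an adjusted p ≤ 0.05, 4 were higher (also Ddx58 and Dhx58) against 13.7% of all genes. Those same 4 genes had every LPS + GSK-J4 library above every GSK-J4 library, as did 19.8% of all genes, and Mavs had every LPS + GSK-J4 library below, as did 18.4% of all genes. The median log2 fold change was 0.58 over the 8 tested sensors and -0.00064 over all genes tested. The sensors were chosen with results of these libraries known, so these counts describe them only.

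**Figure D2:**
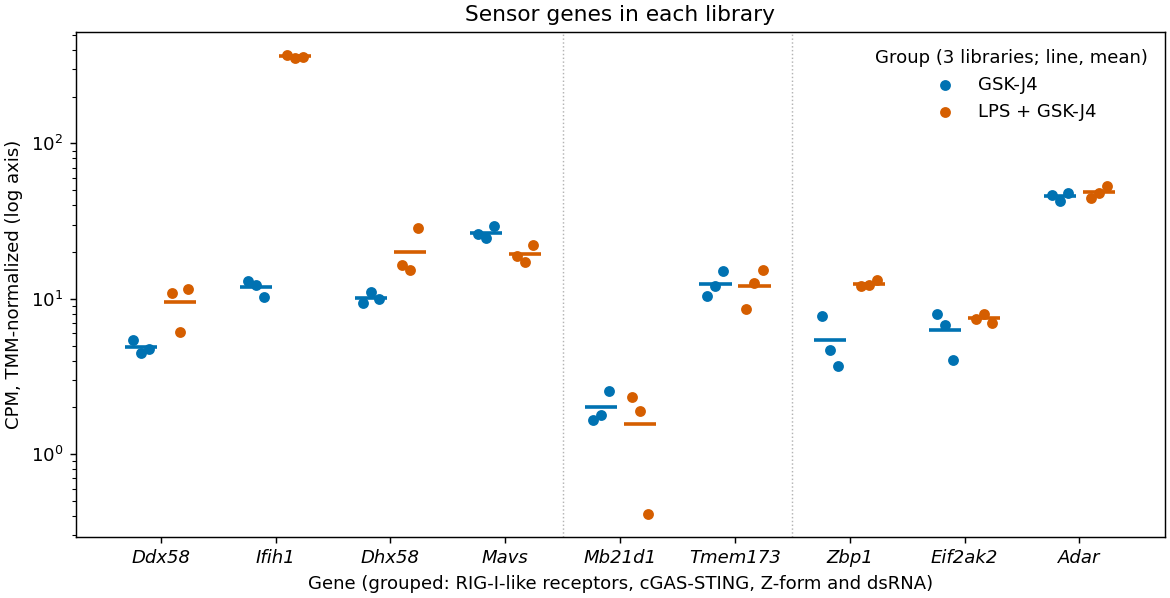
CPM after TMM scaling (y axis, log scale) of the 9 sensor genes (x axis) in each of 3 GSK-J4 libraries (blue) and 3 LPS + GSK-J4 libraries (orange), with lines at the group means. Ifih1 lies at 10.3 to 13.0 CPM in GSK-J4 and 356 to 370.0 CPM in LPS + GSK-J4, and the 2 groups of points lie far closer together for the other 8 genes.

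Ifih1 encodes MDA5, the helicase that senses long double-stranded RNA. It lies on chromosome 2 at 62595798 to 62646255 (mm10, minus strand). Its counts, in the order of replicates 1 to 3, were 55, 55 and 28 in GSK-J4 and 948, 934 and 877 in LPS + GSK-J4. In CPM these were 13.0, 12.3 and 10.3 against 370.0, 356 and 362. The groups were far apart, and the means were 11.9 ± 1.42 CPM (SD, n = 3) and 363 ± 6.82 CPM (SD, n = 3). The fitted fold change was 30.1 (95% interval 24.4 to 37.2), a log2 fold change of 4.91 with an SE of 0.14 and an edgeR adjusted p of 7.38e-13. Of all 10133 genes tested, 18 had a larger log2 fold change. Leaving out any 1 library gave 4.84 to 4.97, and each of these stayed past both thresholds. The marker sums of astrocytes and oligodendrocyte lineage cells given above were also higher with LPS + GSK-J4, and the part of these cells in the Ifih1 values was not tested.

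Ddx58 encodes RIG-I, the helicase that recognises short double-stranded RNA with triphosphate ends, and lies on chromosome 4 at 40203773 to 40239828 (minus strand). Its CPM were 5.43, 4.49 and 4.77 in GSK-J4 and 10.9, 6.11 and 11.6 in LPS + GSK-J4. Counts behind these values were low, at 13 to 28 per library, and LPS + GSK-J4 replicate 2 lay close to the GSK-J4 libraries without overlapping them. This was a log2 fold change of 0.95 (SE 0.31, 95% interval 0.29 to 1.61, edgeR adjusted p = 0.0361), short of the fold threshold. The difference was not firm, since the adjusted p was over 0.05 when any 1 of 5 libraries was left out, reaching 0.122, and only without LPS + GSK-J4 replicate 2 did it stay below, at 0.0163. With DESeq2 the adjusted p was 0.166.

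Dhx58 encodes LGP2, a helicase of the same family that lacks the signalling domain and tunes the other two, and lies on chromosome 11 at 100694884 to 100704271 (minus strand). Its CPM were 9.44, 11.0 and 9.90 in GSK-J4 and 16.4, 15.3 and 28.5 in LPS + GSK-J4. Replicate 3 of LPS + GSK-J4 was the highest by a wide margin, and the groups did not overlap. The log2 fold change was 0.97 (SE 0.26, 95% interval 0.43 to 1.52, edgeR adjusted p = 0.011). Without LPS + GSK-J4 replicate 3 it was 0.64 with an adjusted p of 0.0575, and with both replicate 3 libraries left out it was also 0.64 with an adjusted p of 0.0663.

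Mavs encodes the adaptor through which both signalling helicases act, and lies on chromosome 2 at 131234063 to 131248025 (plus strand). Its CPM were 26.0, 24.5 and 29.3 in GSK-J4 and 18.7, 17.2 and 22.3 in LPS + GSK-J4. It was the one sensor gene with every LPS + GSK-J4 library below every GSK-J4 library. The log2 fold change was -0.45 (SE 0.19, 95% interval -0.84 to -0.05, edgeR adjusted p = 0.0977) and did not pass the test.

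Mb21d1 encodes cGAS, and lies on chromosome 9 at 78430526 to 78443237 (minus strand). Its counts were 7, 8 and 7 in GSK-J4 and 6, 5 and 1 in LPS + GSK-J4, the lowest of the sensors, and the last of these was under the limit of 3 counts. Fitted without the filter, its log2 fold change was -0.35 with a 95% interval of -1.57 to 0.87, so that a level lower by 2-fold or more lay within the interval and was not detectable at this depth. Tmem173 encodes STING, the membrane protein activated by the product of cGAS. Its CPM were 10.4, 12.1 and 15.03 in GSK-J4 and 8.59, 12.6 and 15.3 in LPS + GSK-J4, and the groups overlapped. STING transcripts had a log2 fold change of -0.02 (95% interval -0.57 to 0.52, edgeR adjusted p = 0.96). The DNA-sensing pair therefore gave no difference beyond the spread between libraries.

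Zbp1 encodes a sensor of Z-form nucleic acid that recruits the kinase RIPK3 in cell death, and lies on chromosome 2 at 173206612 to 173218923 (minus strand). Its CPM were 7.79, 4.71 and 3.67 in GSK-J4 and 12.1, 12.2 and 13.2 in LPS + GSK-J4. The LPS + GSK-J4 libraries lay close together, and the GSK-J4 libraries were lower and more spread. The log2 fold change was 1.17 (SE 0.29, 95% interval 0.55 to 1.79, edgeR adjusted p = 0.00827), a fold of 2.25 that is below the fold threshold. It was 1.53 with an adjusted p of 0.0029 without GSK-J4 replicate 1, where Zbp1 passed both thresholds. Leaving out any 1 of the other 5 libraries gave an adjusted p over 0.01, at most 0.0443 without GSK-J4 replicate 2, and DESeq2 gave 0.036. With both replicate 3 libraries left out it was 0.97 with an adjusted p of 0.0263.

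Eif2ak2 encodes PKR, a kinase that is activated by double-stranded RNA and blocks translation through eIF2α, and lies on chromosome 17 at 78852564 to 78882573 (minus strand). Its CPM were 8.02, 6.73 and 4.03 in GSK-J4 and 7.42, 8.01 and 7.02 in LPS + GSK-J4. For PKR the log2 fold change was 0.21 (95% interval -0.43 to 0.86, edgeR adjusted p = 0.67), and the libraries of the groups overlapped. Adar encodes an adenosine deaminase that edits double-stranded RNA and limits MDA5 activation by the cell's own RNA, and lies on chromosome 3 at 89715022 to 89753446 (plus strand). Its CPM were 46.7, 42.6 and 47.7 in GSK-J4 and 44.5, 48.1 and 52.9 in LPS + GSK-J4. The log2 fold change was 0.09 (95% interval -0.22 to 0.40, edgeR adjusted p = 0.718), and the interval does not reach a change of 1.5-fold in either direction.

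**Figure D3:**
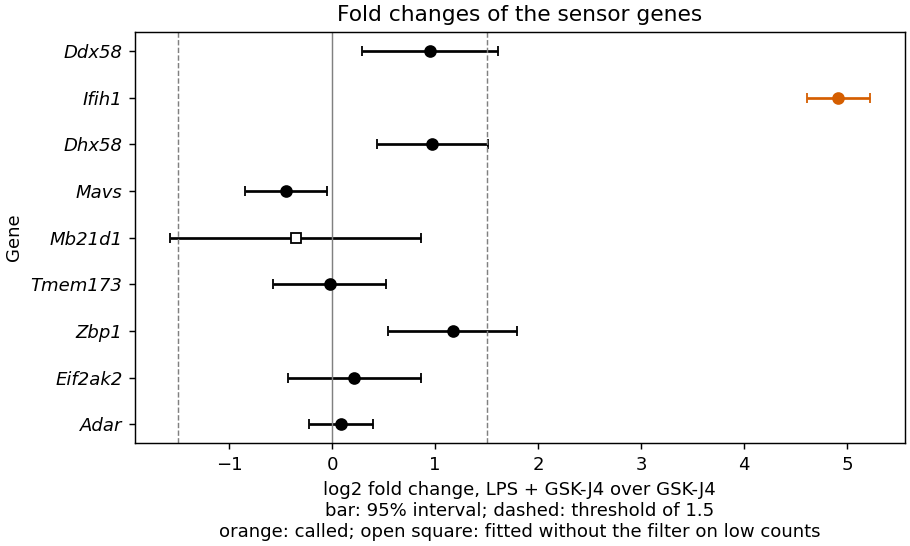
log2 fold change of LPS + GSK-J4 over GSK-J4 (x axis) for the sensor genes (y axis), with 95% intervals from edgeR. Ifih1 (orange) is at 4.91, past the dashed threshold of 1.5, and the other fitted values lie between -0.45 and 1.17. The open square is Mb21d1, fitted without the filter on low counts.

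The make-up of the sensor transcripts was compared within each library. Of all counts on the 9 genes, Ifih1 held 10.1, 10.3 and 8.07% in the GSK-J4 libraries and 75.4, 74.6 and 70.6% in the LPS + GSK-J4 libraries. In GSK-J4 the most counts were on Adar, and in LPS + GSK-J4 most were on Ifih1. The share was 9.48% ± 1.22 against 73.5% ± 2.58 (SD, n = 3), and a two-sided exact permutation test of the difference had a p of 0.1, below which 3 against 3 cannot go. The other 8 genes together were at 113 ± 4.80 CPM (SD, n = 3) and 131 ± 17.3 CPM (SD, n = 3), for which the same exact test also gave p = 0.1. In that sum the groups did not overlap, and LPS + GSK-J4 replicate 3, at 151 CPM, was the highest.

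**Figure D4:**
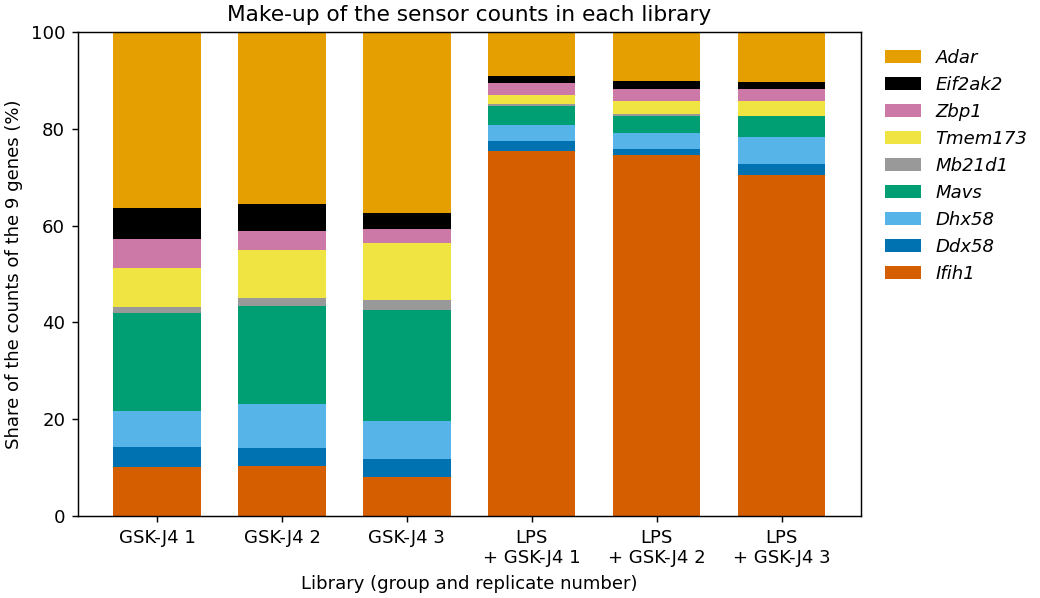
Stacked bars give the share of counts (y axis, %) that each sensor gene held among the 9 genes in each library (x axis). The Ifih1 segment (lowest) fills 8.07 to 10.3% of the GSK-J4 bars and 70.6 to 75.4% of the LPS + GSK-J4 bars.

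Levels were compared between genes per length, as CPM divided by the kilobases covered by the exons of each gene in the GENCODE annotation of mm10. In GSK-J4 the order by mean CPM per kb was Mavs (7.95), Adar (5.63), Tmem173 (4.56), Dhx58 (3.09), Zbp1 (1.53), Ifih1 (1.45), Eif2ak2 (1.22), Ddx58 (0.694) and Mb21d1 (0.486). The libraries of Adar and Tmem173, of Zbp1 and Ifih1, and of Ifih1 and Eif2ak2 overlapped, so these neighbours in the order did not differ beyond their spread. In LPS + GSK-J4 the order was Ifih1 (44.4), Dhx58 (6.13), Adar (5.97), Mavs (5.80), Tmem173 (4.43), Zbp1 (3.54), Eif2ak2 (1.46), Ddx58 (1.35) and Mb21d1 (0.377). Here the neighbours from Dhx58 to Zbp1 overlapped one another, as did Eif2ak2 and Ddx58. Thus Ifih1 went from the sixth to the first place, and Mb21d1 was last in both.

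Ratios between sensors that act together were taken within each library, as the log2 of the counts with 0.5 added. The ratio of Ifih1 to Ddx58, the 2 signalling helicases, was 1.24, 1.44 and 1.08 in GSK-J4 and 5.06, 5.82 and 4.94 in LPS + GSK-J4. It differed by 4.02 between the group means, the libraries did not overlap, and the two-sided exact permutation p was 0.1 (0.25 adjusted over the 5 ratios). The ratio of Mavs to Ddx58 was 2.23, 2.42 and 2.58 in GSK-J4 and 0.77, 1.46 and 0.94 in LPS + GSK-J4. It was lower by a mean of 1.35 with LPS + GSK-J4 and did not overlap either (exact permutation p = 0.1, adjusted 0.25). The ratios of Dhx58 to Ddx58, Mb21d1 to Tmem173 and Eif2ak2 to Adar differed by 0.02, -0.44 and 0.23, and the libraries of the groups overlapped (exact permutation p = 0.8, 0.8 and 0.7, adjusted 0.8 for each). Leaving out 1 library turned the direction of each of these 3 differences, so no direction is drawn from them.

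The genes around the sensors were read from a list of 71 cofactors, inhibitors and targets, of which 64 were tested. Of these, 4 were up-regulated (Trim25, Ifnb1, Trex1 and Ppp1r15a) and 0 were down-regulated in edgeR, against 2.95% and 0.809% of all genes tested. At an unadjusted p under 0.05, 6 were lower, against 15.5% of all genes, and 22 differed in either direction, against 34.8% of all genes. DESeq2 called the same 4 genes up and 0 down. Of the 4, Ifnb1 passed the filter on low counts only through the LPS + GSK-J4 libraries. With at least 10 counts required in every library, Ifnb1 was not tested and 3 pathway genes were called up. The median log2 fold change over the 64 was 0.06. At an adjusted p ≤ 0.01 with any fold, 11 were higher and 3 lower, against 8.42% and 5.46% of all genes tested. Leaving out 1 library gave 4 to 6 up-regulated genes, with 6 without GSK-J4 replicate 2 or without LPS + GSK-J4 replicate 3.

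**Figure D5:**
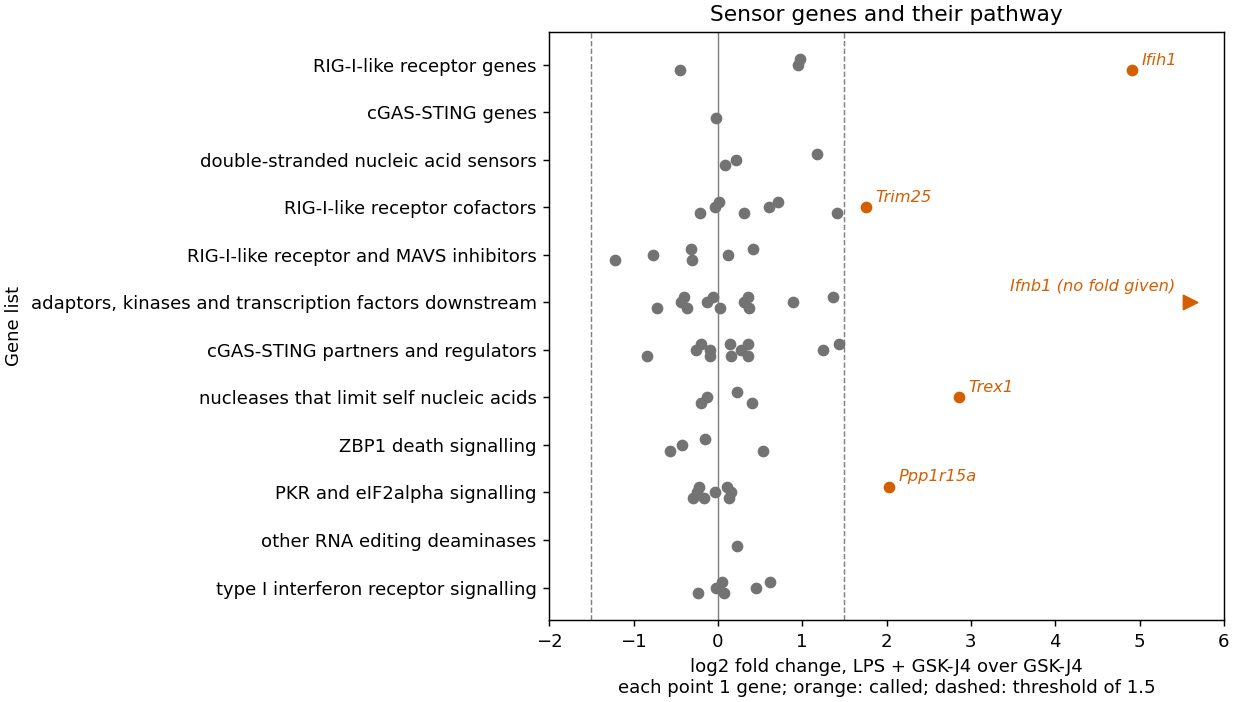
log2 fold change of LPS + GSK-J4 over GSK-J4 (x axis) of each tested sensor and pathway gene, in rows by gene list. Orange points are the genes called up, and most other points lie between the dashed thresholds near 0. No fold is drawn for Ifnb1 (arrow), which had 1, 0 and 0 counts in GSK-J4.

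Around the RNA helicases, 1 of 8 tested cofactors was up-regulated, against 2.95% of all genes tested. Trim25, the ubiquitin ligase that modifies RIG-I, was at 19.6, 20.4 and 18.0 CPM in GSK-J4 and 64.8, 55.3 and 78.0 CPM in LPS + GSK-J4 (log2 fold change 1.76, SE 0.17, edgeR adjusted p = 1.36e-06). Rnf135, another ligase of RIG-I, had 4 to 13 counts per library and was not tested. Ddx60, G3bp1 and Zc3hav1, which encode RNA-binding cofactors, passed the p threshold alone, with log2 fold changes of 1.41, 0.71 and 0.61. Of 6 tested inhibitors, 0 were called in edgeR and 2 had an unadjusted p under 0.05, near the share of all genes (34.8%). Atg12, part of an autophagy conjugate that binds the helicase and MAVS signalling domains, had a log2 fold change of -1.22 (edgeR adjusted p = 7.65e-06) without reaching the fold threshold.

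Downstream of MAVS and STING, against 2.95% of all genes tested, 1 of 13 genes was up-regulated. It was Ifnb1, the interferon-β gene, with 1, 0 and 0 counts in GSK-J4 and 250, 234 and 189 counts in LPS + GSK-J4 (edgeR adjusted p = 1.69e-11). A fold is not given, since the GSK-J4 libraries were all under 3 counts. Ifnb1 passed the filter on low counts only through the LPS + GSK-J4 libraries, where it was high. Its adjusted p and its place in these counts are therefore a description only. The genes of the kinases and the adaptor on this path did not pass the test, with log2 fold changes of -0.13 for Tbk1, 0.02 for Ikbke and 0.31 for Traf3, and 0.37 for the transcription factor gene Irf3. Irf7, the interferon-inducible transcription factor, was at 9.91, 9.43 and 9.17 CPM in GSK-J4 and 19.5, 25.2 and 29.3 CPM in LPS + GSK-J4. Its log2 fold change of 1.37 (SE 0.22, edgeR adjusted p = 2.25e-04) passed the p threshold but not the fold threshold. Tank, a scaffold of the kinases, also passed the p threshold alone, at 0.89.

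Of 12 tested partners and regulators of cGAS and STING, 0 were called in edgeR and 4 had an unadjusted p under 0.05, near the share of all genes (34.8%). Ifi204, a DNA-binding sensor gene of the p200 family, and Trim56, a ubiquitin ligase of this path, passed the p threshold alone with log2 fold changes of 1.44 and 1.24, and the kinase gene Ulk1 did so at -0.85. Among 5 tested nucleases and related enzymes that limit the cell's own nucleic acids, 1 was up-regulated, against 2.95% of all genes tested. This was Trex1, the cytosolic DNA exonuclease. It was at 9.44, 8.31 and 8.80 CPM in GSK-J4 and 70.6, 56.1 and 66.9 CPM in LPS + GSK-J4 (log2 fold change 2.86, SE 0.18, edgeR adjusted p = 8.83e-09). Samhd1, which degrades deoxynucleotides, was at -0.20 and did not pass the test.

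Of the cell death genes downstream of ZBP1, 0 of 4 tested were called in edgeR and 1 had an unadjusted p under 0.05, no more than the share of all genes (34.8%). Ripk1 passed the p threshold alone at -0.56, Ripk3 was at 0.53 on 3 to 13 counts per library, and Mlkl, the executioner of necroptosis, had 1 to 7 counts and was not tested. Around PKR, against 2.95% of all genes tested, 1 of 9 tested genes was up-regulated. This was Ppp1r15a, whose product GADD34 directs a phosphatase to eIF2α and so reverses the action of PKR, with 188, 201 and 206 CPM in GSK-J4 and 759, 811 and 863 CPM in LPS + GSK-J4 (log2 fold change 2.03, SE 0.11, edgeR adjusted p = 1.24e-09). Eif2s1, which encodes eIF2α, was at 0.15, and Adarb1, which encodes another RNA editing deaminase, was at 0.22. Among 6 tested genes of type I interferon receptor signalling, 0 were called in edgeR and 2 had an unadjusted p under 0.05, again near that share. These 2 were Irf9 at 0.62 (edgeR adjusted p = 0.0112) and Stat2 at 0.45 (edgeR adjusted p = 0.113). Both had every LPS + GSK-J4 library above every GSK-J4 library. The receptor genes Ifnar1 and Ifnar2 were at 0.07 and -0.03.

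For each tested sensor, the 2 other genes with the most similar level across the 6 libraries were found by Pearson's r of log2 CPM, as a description. The closest to Ifih1 were Tnf, the gene of the cytokine TNF-α (r = 0.9997), and Nfkbiz, the gene of an inducible IκB family protein (r = 0.9996). With 2 groups of 3, such values for Ifih1 mostly reflect the step between the groups, and 481 genes had an r of at least 0.95 with Ifih1. The genes named were also picked as the highest over all genes tested, on 6 libraries. A high r was therefore to be found even where the groups differed little. For Zbp1 the closest were Col12a1 (0.994) and Lhfp (0.993), for Ddx58 Nup37 (0.998) and Sipa1l1 (0.990), and for Dhx58 Ecel1 (0.996) and Ilk (0.993). They were Ssh3 (0.998) and Cul9 (0.998) for Mavs, Slc52a2 (0.987) and Sf3a2 (0.984) for Tmem173, Esd (0.989) and Rbks (0.985) for Eif2ak2, and Fam65a (0.998) and Snora7a (0.997) for Adar. Of the sensors that differed little between the groups, Eif2ak2 had 13 genes at an r of at least 0.95, Tmem173 had 24 and Adar had 40. The number was 44 for Ddx58, 118 for Dhx58, 178 for Zbp1 and 179 for Mavs.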

How the data were processed

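RNA was depleted of ribosomal RNA and sequenced as paired, directional libraries. Per the labels and the submitters' processing notes, the authors demultiplexed reads with CASAVA 1.8.2, trimmed them with Trimmomatic 0.33 and aligned them to mm10 with STAR 2.5.1. They deposited raw counts per gene for 3 strand settings, without normalization. The annotation used for counting is not given in the sources used here. STAR counts only fragments that map uniquely and overlap 1 gene.

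Groups and replicate numbers came from the titles. Reverse-strand counts were used. They were tested in R 4.3.3 with edgeR 4.0.16 (TMM, filterByExpr at counts of 10 and totals of 15, robust quasi-likelihood test, no block), with Benjamini-Hochberg adjustment of p over all 10133 genes tested. The common biological coefficient of variation was 0.133. Calls needed an adjusted p ≤ 0.01 and a log2 fold change of 1.5 in either direction, the criteria of the study. DESeq2 1.42.0 was an alternative. On simulated data edgeR called 193 of 200 changed genes and 0 unchanged genes. The changed genes had a log2 fold change of size 2 (93 of 100 called) or 3 (100 of 100 called). Both sizes lie past the threshold of 1.5, and calling at smaller sizes was not tested. Every simulated gene had the common coefficient of variation, libraries were drawn independently, and equal numbers of genes were set higher and lower. These settings are simpler than the libraries studied, so the simulated counts give no error rate for them.

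All 9 sensor genes were described, with the pathway genes past both thresholds, those of set roles and the 2 genes most similar to each sensor. The sensors and all gene lists were chosen with earlier results of these data known. A single value was compared by a two-sided exact permutation test over libraries. Ratios used counts with 0.5 added. Figures were drawn with matplotlib 3.10.9. Same-numbered libraries did not deviate together in every pair, so the numbers were not used to pair them.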

Additional observations from a re-analysis of the deposited data

Results flagged for a closer look

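Ifih1 had antisense counts in LPS + GSK-J4, in a column that no comparison above uses. There were 7, 7 and 6 counts on the strand opposite to the gene in LPS + GSK-J4 replicates 1, 2 and 3, a mean of 6.67, against 1, 1 and 0 in GSK-J4, a mean of 0.667. As a share of the counts on both strands, this was 0.720% in LPS + GSK-J4 and 1.43% in GSK-J4, while the share over all genes was 0.966 to 1.38% per library. The counts on the opposite strand were thus higher together with the counts on the gene, and their share was not.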

How the results depend on the processing

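The up-regulation of Ifih1 kept its direction and passed both thresholds in each of 15 alternatives, with a log2 fold change of 4.84 to 4.97. The other tested sensors kept their call by both thresholds together in all 15, except Zbp1, and kept their direction, except Tmem173, whose log2 fold change was 0.10 and 0.17 without GSK-J4 replicate 3 and LPS + GSK-J4 replicate 1 and ranged from -0.21 to 0.17 when 1 library was left out. On the adjusted p alone, Dhx58 (0.011) passed 0.01 with the replicate block (0.00133), with no filter (0.00205) and without LPS + GSK-J4 replicate 1 (0.00861). The number of sensors called was 1 to 2 when 1 library was left out, since Zbp1 reached 1.53 without GSK-J4 replicate 1, within its range of 1.00 to 1.53. At looser thresholds (adjusted p ≤ 0.05, log2 fold change ≥ 1), 2 sensors were called, Zbp1 (1.17) being the second, with 9 pathway genes (8 up, 1 down) and 1129 of all genes, against 381 in the test reported. With at least 10 counts in every library 232 were called, fewer genes being tested, and Ifnb1 was left out. With 1 library left out, 351 to 470 of all genes were called. The difference in log2 ratio ranged from -0.10 to 0.26 for Dhx58 to Ddx58, from -1.05 to 0.37 for Mb21d1 to Tmem173 (0.37 without LPS + GSK-J4 replicate 3) and from -0.079 to 0.41 for Eif2ak2 to Adar (-0.079 without GSK-J4 replicate 3). The cause of these changes was not tested.

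Same-numbered libraries of the groups had correlations of their deviations from -0.0102 to 0.295, and other pairs from -0.290 to 0.243, so the replicate number was not taken as a pairing. With the replicate block, 1 sensor, 4 pathway genes and 396 of all genes (306 up, 90 down) were called, Ifih1 was at 4.91 and no sensor changed its call by both thresholds. Leaving out both replicate 3 libraries, an alternative chosen after the data were seen, gave 1 sensor and 4 pathway genes called, with Ddx58 at 0.78, Dhx58 at 0.64 and Zbp1 at 0.97. Depth limits the low sensors most, Mb21d1 at 1 to 8 counts and Ddx58 at 13 to 28, and intervals cover the spread between these libraries only.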
